A study of Mus musculus with 13 samples.

Results

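Levels of 10 immediate early genes were followed in RNA from whole aortas of ApoE-/- mice, which lack apolipoprotein E and develop plaques on a Western diet. They were taken by symbol from a table of 56953 genes: the AP-1 subunits Fos, Fosb, Jun and Junb, the stress-induced factor Atf3, the zinc finger factor Egr1, the orphan nuclear receptor Nr4a1, the early response genes Ier2 and Ier3, and Zfp36, which encodes an RNA-binding protein. All 10 were in the table, and all 10 were among the 18055 genes that passed the filter on low counts.

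The immediate early genes are a small group of genes whose transcription starts within minutes of a stimulus, without new protein synthesis, and whose mRNAs decay quickly afterwards. Mitogens, stretch, oxidants and cytokines act on their promoters through kinase cascades and through factors already present in the cell, chiefly SRF with its ETS partners, CREB and ATF proteins, and NF-kB. Most of their products are transcription factors or feedback regulators, and in the vessel wall they are known from injured smooth muscle, disturbed flow and plaque. They are also known to respond to handling of tissue during dissection.

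The mice all carried the ApoE-/- genotype, were 6 weeks old at the start and received Western diet for 16 weeks. The diet held auranofin at 3 mg/kg/day in 3 libraries, atorvastatin at 10 mg/kg/day in 3 libraries, both drugs at these doses in 2 libraries (called combination here), and neither drug in 5 libraries (called WD). Auranofin is a gold compound known as an inhibitor of thioredoxin reductase, and atorvastatin is a statin, an inhibitor of HMG-CoA reductase. The groups analysed here hold no mice on a normal diet and none with an intact Apoe gene, so every comparison is between drug and no drug on the same diet and genotype. The labels give no batch, and they do not say whether a library is 1 mouse or a pool, so p-values measure the spread between these libraries.

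The libraries held 19703683 to 26079566 counts, and mitochondrial transcripts took 9.36% to 38.8% of them. Library auranofin 2 and library WD 2 had the lowest scaling factors, 0.629 and 0.639, against 0.801 to 1.23 in the others. All 12 contractile smooth muscle, 9 endothelial and 8 adventitial fibroblast markers, which define the labelled tissue, had counts in every library, as did markers of macrophages and fat. The sum of the 12 smooth muscle markers was 7477 to 19178 CPM (counts scaled to library size) in the auranofin libraries, 15957 to 21978 in the atorvastatin libraries, 13039 to 24028 in the combination libraries and 15751 to 34211 in the WD libraries. The sum of the 6 adipocyte markers was 928 to 2480 CPM in the auranofin libraries, 471 to 1021 in the atorvastatin libraries, 418 to 1982 in the combination libraries and 253 to 1011 in the WD libraries. In bulk RNA, fewer cells of a type and less RNA per cell cannot be told apart, which holds for every value below.

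No immediate early gene passed an adjusted p of 0.05 in edgeR in any comparison, and neither did any other gene tested, a background of 0% in each of the 7 comparisons. DESeq2 called 2 to 9 genes in 4 of the comparisons, none of them among the 10. The values below are therefore given as levels and fitted differences with their errors. The main features were that all 10 genes had a lower fitted level with auranofin alone than with diet alone, that the 2 combination libraries lay at opposite ends of the range for most of the genes, and that many pairs of the 10 genes varied together from library to library, most closely within 2 sets.

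Levels are CPM at TMM-scaled library sizes, given in library order, and values of different genes are not comparable because the genes differ in length. Fos, a leucine zipper protein that pairs with a Jun protein to form AP-1, had 91.4, 49.7 and 67.6 CPM in auranofin libraries 1 to 3 and 168, 102, 191, 72.5 and 176 CPM in WD libraries 1 to 5. WD 4 lay inside the auranofin range, and the other 4 WD libraries were above it. The Fos level was 136, 62.0 and 97.6 CPM in the atorvastatin libraries and 225 and 36.2 CPM in the combination libraries. The combination libraries were thus the highest and the lowest of all 13 for Fos. Fosb, a close relative of Fos, had 16.5, 7.58 and 14.7 CPM in the auranofin libraries and 36.9, 8.65, 52.2, 18.6 and 42.7 CPM in the WD libraries. WD 2, at 8.65 CPM, lay among the auranofin values, and the other 4 WD libraries were higher than every auranofin library. Fosb had 40.0, 22.7 and 33.7 CPM in the atorvastatin libraries and 63.8 and 10.3 CPM in the combination libraries. All 3 atorvastatin libraries lay above all 3 auranofin libraries.

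Jun, the best known partner of Fos in AP-1, had 123, 107 and 87.8 CPM in the auranofin libraries and 189.8, 101, 226, 101 and 104 CPM in the WD libraries. Only WD 1 and WD 3 were above the auranofin range, and the other 3 WD libraries fell inside it. Jun had 148, 139.9 and 224 CPM in the atorvastatin libraries, again above all 3 auranofin libraries, and 241 and 98.6 CPM in the combination libraries. Junb, which competes with Jun for Fos partners, followed other libraries. It had 110.3, 100.1 and 79.0 CPM in the auranofin libraries, 108, 86.2 and 92.3 CPM in the atorvastatin libraries, 188 and 70.8 CPM in the combination libraries and 176, 205, 87.0, 95.3 and 184 CPM in the WD libraries. WD 3 and WD 4 lay inside the auranofin range. WD 2, low for Fosb and Jun, was the highest of all 13 libraries for Junb.

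**Figure D1:**
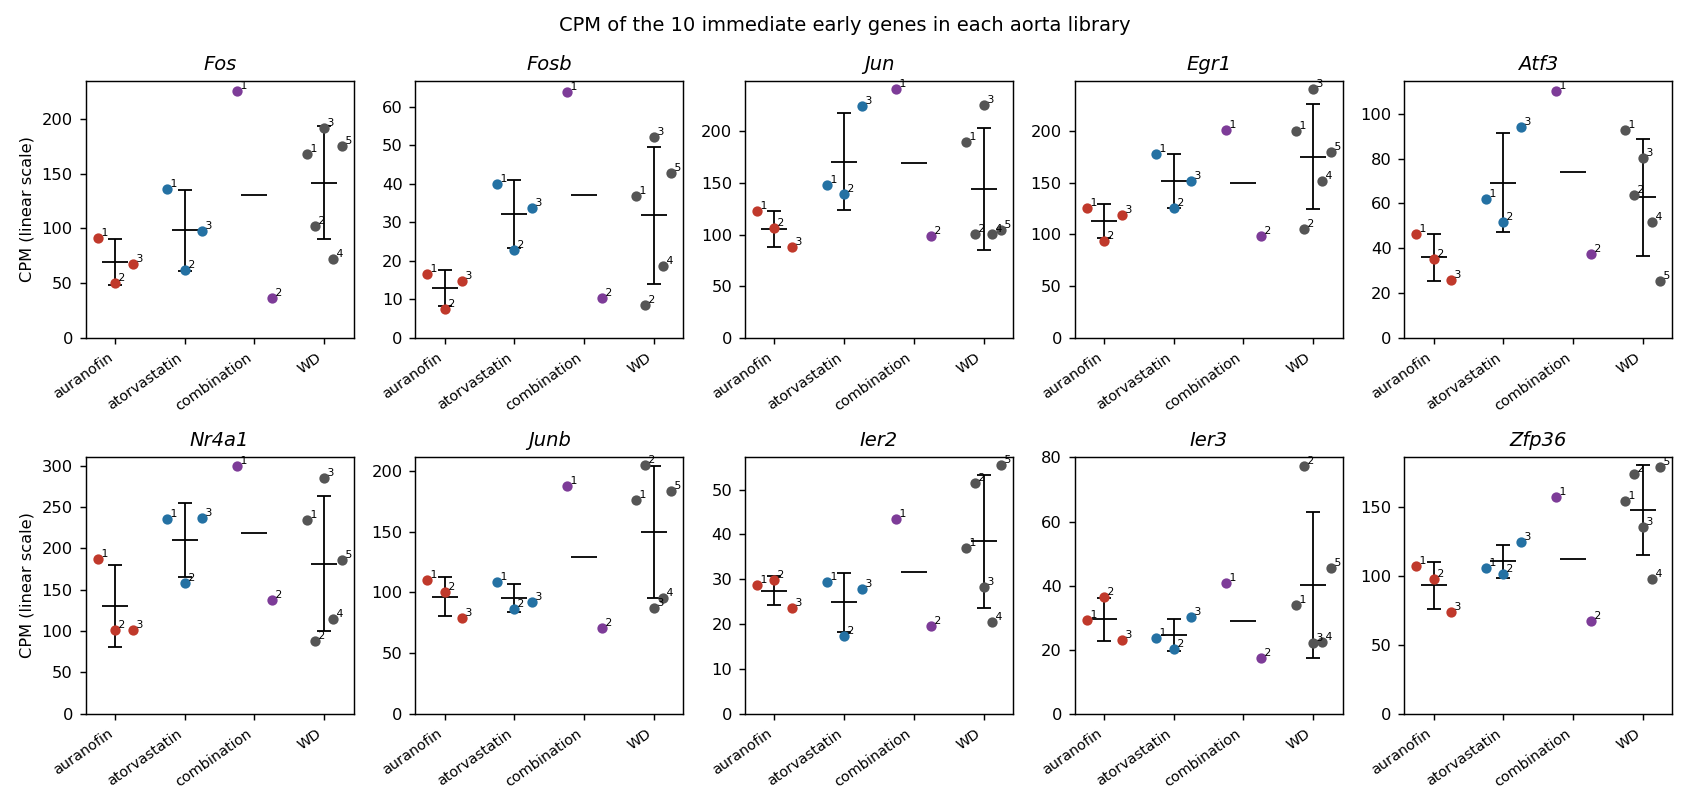
CPM on a linear axis for each of the 10 genes in each of the 13 libraries, with groups from left to right and the library number beside each point. The horizontal mark is the group mean and the bars are 1 SD, drawn for groups of 3 or 5 libraries only. Every panel shows overlap between the 3 auranofin and 5 WD libraries, and in every panel combination 1 stands at least 2-fold above combination 2.

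The promoters of 3 of the genes are shown because Fos and Nr4a1 are textbook targets of CREB, whose half-site is TGACG, and because Junb fell in a different set of co-varying genes, as described below. Sequences are the 250 bases before the RefSeq transcript start on GRCm38.p6, a different build from the one used for counting, and are written 5′ to 3′ on the gene strand with TGACG, or its reverse complement CGTCA, in capitals. They were matched by symbol, and 8 of the 10 genes, all but Egr1 and Ier2, had an entry in the sequence table. Fos lies at chr12:85473640-85473889 on the + strand, Nr4a1 at chr15:101266596-101266845 on the + strand and Junb at chr8:84978749-84978998 on the - strand, and 0 bases of the 3 windows were exonic in GENCODE vM21.
Fos: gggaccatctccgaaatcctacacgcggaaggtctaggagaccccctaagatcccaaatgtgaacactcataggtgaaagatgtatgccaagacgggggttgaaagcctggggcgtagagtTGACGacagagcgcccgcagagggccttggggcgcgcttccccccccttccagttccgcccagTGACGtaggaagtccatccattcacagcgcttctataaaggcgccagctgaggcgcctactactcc
Nr4a1: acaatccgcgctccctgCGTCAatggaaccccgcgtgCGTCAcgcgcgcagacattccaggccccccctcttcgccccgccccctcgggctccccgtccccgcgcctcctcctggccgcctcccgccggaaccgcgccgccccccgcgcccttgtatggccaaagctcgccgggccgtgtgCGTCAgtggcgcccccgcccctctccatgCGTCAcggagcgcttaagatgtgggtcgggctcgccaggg
Junb: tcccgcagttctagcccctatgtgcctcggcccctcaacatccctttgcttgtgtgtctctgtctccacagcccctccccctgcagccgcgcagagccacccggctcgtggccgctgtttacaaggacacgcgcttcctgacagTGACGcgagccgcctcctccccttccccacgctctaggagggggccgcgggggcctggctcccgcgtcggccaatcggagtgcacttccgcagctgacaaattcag
Counted from the start to the first base of each match, Fos had 2 half-sites, 129 and 66 bases before the start, Nr4a1 had 4, at 233, 213, 69 and 40 bases, and Junb had 1, at 106 bases. TGACG, searched on both strands and including any copy inside the full site TGACGTCA, was found in 5 of the 8 windows (Fos, Fosb, Junb, Atf3 and Nr4a1), against 17.8% of 32851 promoter windows of the same length. Those 32851 windows were not matched to the 8 for base composition, so the shares are not a test of enrichment. The full site TGACGTCA was found in 0 of the 8, against 1.55% of all windows, and the AP-1 site TGAGTCA in 0 of the 8, against 4.46%. The CArG box, the binding sequence of SRF, was found in 1 of the 8 windows, that of Zfp36 at 58 bases before the start, against 1.47% of all windows. All 250 bases of the Zfp36 window were exonic in GENCODE vM21, counting exons of any gene on either strand. The windows of Ier3, Atf3 and Fosb held 29, 7 and 6 exonic bases. All these matches are of letters in a short window, so sites farther upstream were not searched, and no binding was measured.

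Atf3, a member of the ATF family induced by many forms of stress, had 46.5, 35.4 and 25.8 CPM in the auranofin libraries and 92.7, 63.5, 80.0, 51.6 and 25.6 CPM in the WD libraries. WD 5 had the lowest Atf3 level of all 13 libraries, just below auranofin 3, and the other 4 WD libraries were above the auranofin range. Atf3 had 62.0, 51.7 and 94.1 CPM in the atorvastatin libraries, all above the auranofin libraries, and 110.3 and 37.6 CPM in the combination libraries.

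Egr1, a zinc finger factor induced by injury, shear stress and growth factors in vascular cells, had 126, 94.0 and 118 CPM in the auranofin libraries and 199, 105, 241, 151 and 179 CPM in the WD libraries. The WD libraries other than WD 2 were above the auranofin range. Egr1 had 178, 126 and 151 CPM in the atorvastatin libraries and 201 and 98.3 CPM in the combination libraries, so atorvastatin 2 lay just below the highest auranofin library. Nr4a1, an orphan nuclear receptor known to restrain inflammatory activity of macrophages in mouse atherosclerosis, had 187, 102 and 101 CPM in the auranofin libraries, 235, 158 and 236 CPM in the atorvastatin libraries, 300.0 and 138 CPM in the combination libraries and 234, 88.3, 285, 114 and 186 CPM in the WD libraries. Auranofin 1 reached the level of WD 5 for this gene, and WD 2 was the lowest library of all.

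Ier2, a small nuclear protein gene, had 28.8, 29.8 and 23.7 CPM in the auranofin libraries, 29.4, 17.4 and 27.9 CPM in the atorvastatin libraries, 43.5 and 19.6 CPM in the combination libraries and 36.9, 51.4, 28.2, 20.6 and 55.4 CPM in the WD libraries. Ier3, a regulator of apoptosis and a target of NF-kB, had 29.2, 36.3 and 23 CPM in the auranofin libraries, 23.7, 20.3 and 30.1 CPM in the atorvastatin libraries, 40.8 and 17.3 CPM in the combination libraries and 34.0, 77.2, 22, 22.4 and 45.3 CPM in the WD libraries. For both genes WD 3 and WD 4 lay inside or below the auranofin range, and WD 2 and WD 5 were the highest WD libraries. Zfp36 encodes tristetraprolin, which binds AU-rich elements of cytokine mRNAs such as that of TNF and speeds their decay. It had 108, 97.9 and 74.3 CPM in the auranofin libraries, 106, 102 and 125 CPM in the atorvastatin libraries, 158 and 67.7 CPM in the combination libraries and 155, 174, 135, 98 and 179 CPM in the WD libraries. WD 4 was the single WD library inside the auranofin range for Zfp36, and the other 4 were higher than every auranofin and atorvastatin library.

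The libraries are not stranded, so reads from overlapping genes on the other strand cannot be told apart. In GENCODE vM21, Jun shares 232 exonic bases with Junos, Junb shares 173 with Prdx2 and Zfp36 shares 125 with Gm44710, each on the opposite strand, and the other 7 genes share none.

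The first comparison asks what auranofin alone did to the early response on a Western diet. The fitted level of all 10 genes was lower in the auranofin than in the WD libraries, and 53.6% of all genes tested were fitted lower. Many of the 10 genes varied together across libraries, as described below, so in no comparison are they 10 independent results. The differences ran from -1.30 for Fosb to -0.45 for Ier3 on the log2 scale, with a median of -0.63 over the 10 genes and of -0.04 over all genes tested. Zfp36 had the smallest SE relative to its difference: it averaged 93.3 ± 17.1 CPM in the auranofin libraries and 148 ± 33.0 CPM in the WD libraries (SD, n = 3 and 5), a log2 difference of -0.67 (SE 0.28) with a 95% interval of -1.28 to -0.053. That interval excluded 0, at an unadjusted p of 0.0355 in edgeR's quasi-likelihood test, but the adjusted p was 0.671. In edgeR the same unadjusted level was reached by 1 of the 10 genes, and lower by 3.79% of all genes tested. Other tools, and edgeR without the low-count filter, differed in which of the 10 reached it, as given below.

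The 2 Fos family genes had the largest fitted differences and the largest errors. Fosb averaged 12.9 ± 4.72 CPM in the auranofin libraries and 31.8 ± 17.8 CPM in the WD libraries (SD, n = 3 and 5), a log2 difference of -1.30 (SE 0.61) with an interval of -2.62 to 0.033. Fos averaged 69.6 ± 20.9 CPM in the auranofin libraries and 142 ± 51.5 CPM in the WD libraries, a log2 difference of -1.03 (SE 0.51). The differences were -0.80 (SE 0.43) for Atf3, -0.64 (SE 0.30) for Egr1 and -0.63 (SE 0.35) for Junb. They were smaller for Ier2 at -0.49 (SE 0.34), Nr4a1 at -0.48 (SE 0.40), Jun at -0.45 (SE 0.36) and Ier3 at -0.45 (SE 0.41). Adjusted p-values of the 10 genes in edgeR were 0.671 to 0.730, so none of the differences exceeded the spread between libraries after adjustment over all genes.

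Of the 30 auranofin values of the 10 genes, 26 lay below the WD median of their gene, 8 lay below every WD library and 0 lay above every WD library. Over all genes tested 51% of the auranofin values lay below the WD median and 14.9% below every WD library. Of the 30 atorvastatin values, 23 lay below the WD median, 4 below every WD library and 1 above every WD library, where 50.4% and 17.6% of all atorvastatin values lay below the WD median and below every WD library. All 3 values were below the WD median for 7 of the 10 genes in the auranofin libraries and for 6 in the atorvastatin libraries, against 19.9% and 30.6% of all genes tested. Each set of 30 values came from 3 libraries and from genes that varied together, so the values are not 30 independent observations. The auranofin and WD ranges overlapped for all 10 genes, and 2.77% of all genes tested had groups that did not overlap. All 10 genes kept a lower fitted level with each library left out in turn, when the median of the 10 ranged over -0.76 to -0.52. Ier3 came closest to 0, at -0.07 without WD 2, against -0.45 with all 13 libraries. Other genes also moved by more than 1.5 times: Jun was at -0.24 and Nr4a1 at -0.27 without WD 3, Nr4a1 at -0.84 without auranofin 1, and Ier2 at -0.32 without WD 5. The ranges were -1.27 to -0.84 for Fos, -1.53 to -1.03 for Fosb, -0.79 to -0.49 for Junb, -0.77 to -0.51 for Egr1, -0.80 to -0.53 for Zfp36 and -1.03 to -0.61 for Atf3. The 3 auranofin libraries also had 16.0% to 38.8% mitochondrial counts, against 9.36% to 26.9% in the WD libraries, with the smooth muscle and adipocyte sums given above, whose ranges overlapped between the groups. Auranofin 2 also had 1382 CPM in the B cell markers, 2710 CPM in the endothelial markers and 96.8 CPM in the neutrophil markers. In the WD libraries these sums were at most 77.4, 1131 and 49.2 CPM. The part of these in the differences was not tested.

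**Figure D2:**
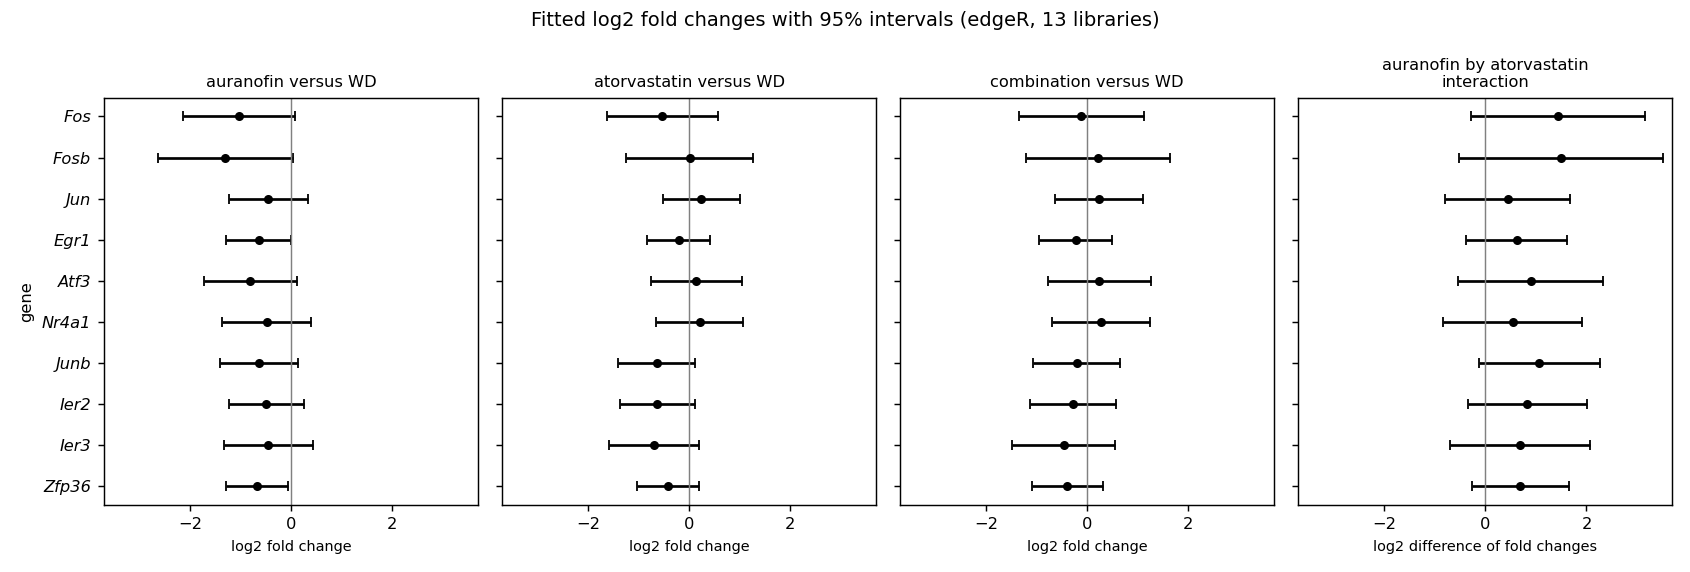
Fitted log2 fold changes of the 10 genes (points) with 95% intervals (bars) in auranofin, atorvastatin and combination libraries, each against WD, and in the interaction of the drugs. All 10 points lie left of 0 for auranofin and right of 0 for the interaction, and the single interval clear of 0 is that of Zfp36 for auranofin, which did not pass adjustment.

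Atorvastatin alone, set against the same 5 WD libraries, gave fitted differences in both directions, although most single values lay below the WD median as given above. The fitted level was lower for 6 genes and higher for 4 in the atorvastatin than in the WD libraries, and 50.8% of all genes tested were fitted lower. The 6 were Ier3 at -0.70 (SE 0.41), Junb at -0.64 (SE 0.35), Ier2 at -0.63 (SE 0.34), Fos at -0.53 (SE 0.50), Zfp36 at -0.42 (SE 0.28) and Egr1 at -0.21 (SE 0.29) on the log2 scale. The 4 were Jun at 0.24 (SE 0.35), Nr4a1 at 0.21 (SE 0.40), Atf3 at 0.14 (SE 0.41) and Fosb at 0.014 (SE 0.58). No interval excluded 0, and 0 of the 10 genes reached an unadjusted p under 0.05, which 14.7% of all genes tested did. The smallest adjusted p among the 10 in edgeR was 0.361, for Junb, which averaged 95.7 ± 11.5 CPM in the atorvastatin libraries and 149 ± 54.4 CPM in the WD libraries (SD, n = 3 and 5). The ranges overlapped for all 10 genes, against 5.7% of all genes tested without overlap.

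The directions for Fosb, Jun, Atf3 and Nr4a1 were not stable: limma voom with quality weights put all 4 below 0, at -0.17, -0.0082, -0.23 and -0.027. These 4 intervals spanned fold changes in both directions, the widest being -1.24 to 1.27 for Fosb, and a p that misses the threshold does not show equal levels.

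For all 10 genes the WD mean lay between the 2 combination libraries. Combination 1 exceeded combination 2 in CPM by 6.23-fold for Fosb, 6.21-fold for Fos, 2.93-fold for Atf3, 2.65-fold for Junb and 2.44-fold for Jun. It exceeded it by 2.35-fold for Ier3, 2.33-fold for Zfp36, 2.22-fold for Ier2, 2.18-fold for Nr4a1 and 2.04-fold for Egr1. All 10 genes were thus at least 2-fold apart, as were 105 of the 9360 genes with a mean of at least 10 CPM in the same direction (1.12%), and the median ratio was 2.40 for the 10 genes and 1.02 for those 9360. Among the 13 libraries combination 1 was in the highest 3 for all 10 genes and was the highest for 5. Combination 2 was in the lowest 3 for 8 genes and was the lowest for 4.

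The smallest count behind these ratios was 217, for Fosb in combination 2, where combination 1 had 1726. Combination 2 also had 1982 CPM in the adipocyte markers and 13039 CPM in the smooth muscle markers, against 418 and 24028 CPM in combination 1. In combination 2 the striated muscle markers summed to 1169 CPM and the brown adipocyte markers to 1600 CPM. In combination 1 these sums were 30.2 and 268 CPM. The part of these in the difference was not tested.

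As a group, the combination libraries gave 6 genes fitted lower and 4 fitted higher than the WD libraries, from -0.46 for Ier3 to 0.27 for Nr4a1 on the log2 scale, with a median of -0.16. Across all genes tested 51% were fitted lower. Every one of the 10 had an adjusted p of 0.997 in edgeR, 0 of the 10 reached an unadjusted p under 0.05 against 1.47% of all genes tested, and the ranges overlapped for all 10, against 3.29% of genes without overlap. The sign rested on which library was used: without combination 1 all 10 genes were fitted lower, with a median of -1.04, and without combination 2 all 10 were fitted higher, with a median of 0.50. With 1 library left in the group, its spread is assumed to be that of the other groups.

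**Figure D3:**
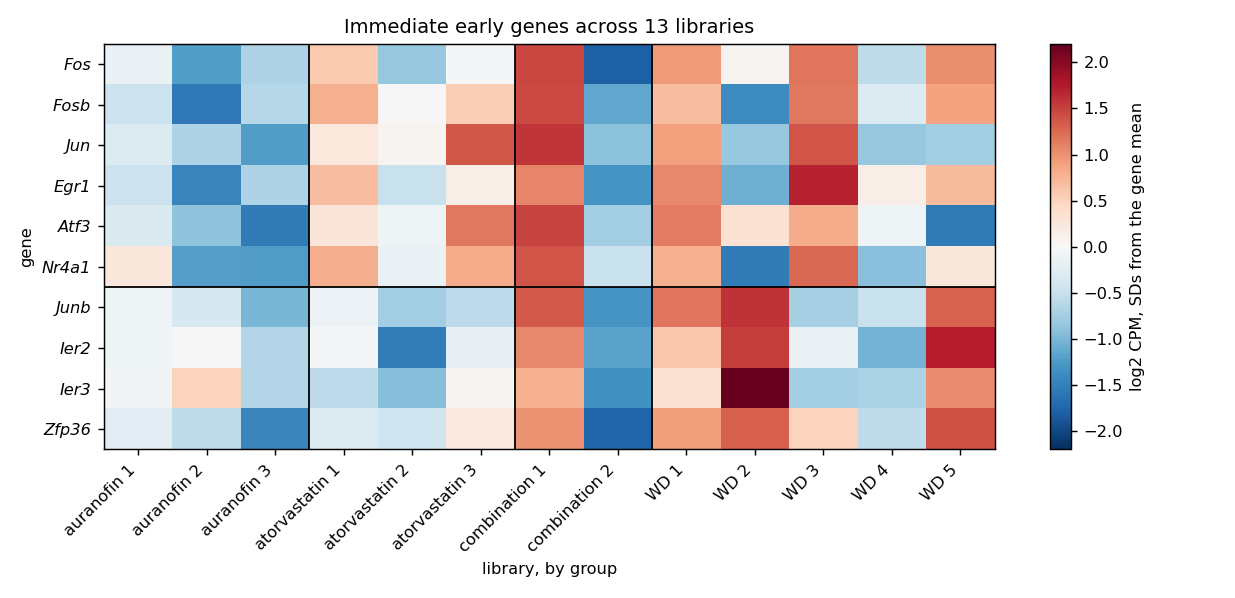
Log2 CPM of each gene (rows) in each library (columns, by group), shown as SDs from the mean of that gene over the 13 libraries, red above and blue below. Combination 1 is red in all 10 rows and combination 2 is blue in all 10, and WD 2 is deep red in the lower 4 rows but not in the upper 6.

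Between the 2 drugs the largest fitted differences were those of Fosb, Atf3, Nr4a1 and Jun, and 7 of the 10 genes were fitted lower with auranofin, as were 49.9% of all genes tested. The auranofin values lay wholly below the atorvastatin values for Fosb, Jun and Atf3, 3 of the 10 genes, and groups of 3 did not overlap for 13.5% of all genes tested. On the log2 scale Fosb differed by -1.31 (SE 0.66), with 12.9 ± 4.72 CPM in the auranofin libraries and 32.1 ± 8.77 CPM in the atorvastatin libraries (SD, n = 3 each). Atf3 differed by -0.95 (SE 0.47), with 35.9 ± 10.3 CPM in the auranofin libraries and 69.3 ± 22.1 CPM in the atorvastatin libraries. Nr4a1 differed by -0.69 (SE 0.45), Jun by -0.69 (SE 0.40), Fos by -0.50 (SE 0.55), Egr1 by -0.43 (SE 0.32) and Zfp36 by -0.25 (SE 0.31). Junb, Ier2 and Ier3 had fitted values of 0.012 (SE 0.39), 0.14 (SE 0.38) and 0.25 (SE 0.45), higher with auranofin. The smallest adjusted p among the 10 in edgeR was 0.826, 0 of the 10 reached an unadjusted p under 0.05, which 4.4% of all genes tested did, and none of the 10 intervals excluded 0. Alternative runs differed in the unadjusted level for Fosb and Atf3, as given below.

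Over the 2 by 2 layout, auranofin given or not set 5 libraries against 8. All 10 genes were fitted lower with auranofin, as were 55.4% of all genes tested, from -0.67 for Fosb to -0.15 for Ier2 on the log2 scale, with a median of -0.33. Adjusted p was 0.998 for each of the 10 genes in edgeR. There 0 of them reached an unadjusted p under 0.05, which 2.69% of all genes tested did. Other tools differed in this, as given below. Without WD 2, Ier3 was fitted higher, at 0.06, and 9 genes were fitted lower. The median of the 10 genes was -0.61 without combination 1 and -0.22 without combination 2.

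With atorvastatin given or not, 6 of the 10 genes were fitted higher and 4 lower, while 49.6% of all genes tested were fitted lower. The values ran from -0.43 for Ier3 to 0.63 for Fosb, with a median of 0.05, and the smallest adjusted p in edgeR was 0.553. None of the 10 reached an unadjusted p under 0.05, which 7.08% of all genes tested did. The median was -0.32 without combination 1 and 0.22 without atorvastatin 2.

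The interaction asks whether the difference made by auranofin depended on atorvastatin. It was fitted above 0 for all 10 genes, where 47.7% of all genes tested were below 0, from 0.44 (SE 0.57) for Jun to 1.5 (SE 0.93) for Fosb with a median of 0.76. Adjusted p-values of the 10 genes in edgeR were 0.791 to 0.83, 0 of the 10 reached an unadjusted p under 0.05, which 3.1% of all genes tested did, and all 10 intervals spanned 0. Without the low-count filter Fos and Junb reached that unadjusted level, as given below. A positive interaction here means that the fitted auranofin difference was less negative or positive on top of atorvastatin. The interaction shares the WD libraries with the comparisons above and rested on combination 1: without that library the median was -0.06, and without combination 2 it was 1.24.

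Libraries of the same group differed most in the Fos genes. The SD of log2 CPM within groups was 1.00 for Fosb, 0.813 for Fos, 0.671 for Atf3, 0.617 for Ier3 and 0.612 for Nr4a1. It was 0.53 for each of Ier2, Jun and Junb, 0.418 for Egr1 and 0.401 for Zfp36. The median of the 10 was 0.570, against 0.447 for all genes tested. Among all genes tested the value of Fosb fell at the 92.8th percentile and that of Fos at the 85.4th, while Egr1 was at the 45.4th and Zfp36 at the 42.6th. The median was 0.357 over the 4385 genes whose log2 CPM averaged 5 or more, which leave out Fosb, Ier2 and Ier3. Among those 4385 genes Fos fell at the 95.3rd percentile, Egr1 at the 62.0th and Zfp36 at the 59.0th. Over all 13 libraries the highest level was 8.43-fold the lowest for Fosb, 6.21-fold for Fos and 2.56-fold for Egr1, the smallest of the 10. Counting error was small beside this, as the lowest count of any of the 10 genes was 115, for Fosb in auranofin 2, with a counting error of 9.33%.

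Many of the genes varied together across libraries. Of the 45 pairs of genes, 26 had a Pearson r above 0.5 over the 13 libraries, 13 had an r above 0.8 and 4 had an r below 0. In permutation tests with 100000 resamples, adjusted over the 45 pairs, 20 pairs passed an adjusted p of 0.05 by Pearson's r and 20 by Spearman's rho. The closest pair was Fosb and Egr1, with Pearson r 0.95, Spearman rho 0.95 and permutation adjusted p = 0.000562 and 0.0009. Its r was 0.93 without the 2 libraries farthest from the Fosb median and 0.98 on deviations from the group means. Of the 26 pairs with r above 0.5, 21 kept it without the 2 farthest libraries and 22 kept it on deviations from the group means.

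The correlations fell into 2 sets, drawn here after the values were seen and therefore not tested as sets. Fos, Fosb, Jun, Egr1, Atf3 and Nr4a1 gave 15 pairs with r of 0.53 to 0.95 and a median of 0.77. Junb, Ier2, Ier3 and Zfp36 gave 6 pairs with r of 0.77 to 0.91 and a median of 0.87. The 24 pairs between the sets had r of -0.15 to 0.82 with a median of 0.29. On deviations from the group means the medians were 0.82, 0.88 and 0.26. In the set of 6, Jun and Nr4a1 had Pearson r 0.88, Spearman rho 0.89 (permutation adjusted p = 0.0009 and 0.0009), and Jun and Atf3 had Pearson r 0.87, Spearman rho 0.79 (permutation adjusted p = 0.0009 and 0.00817). Without the 2 libraries farthest from the Jun median these r values were 0.80 and 0.82. In the set of 4, Junb and Ier2 had Pearson r 0.91, Spearman rho 0.90 (permutation adjusted p = 0.000562 and 0.00101), with r of 0.86 without the 2 libraries farthest from the Junb median.

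Jun and Junb, both AP-1 subunits, were in different sets and had Pearson r 0.17, Spearman rho 0.29 (permutation adjusted p = 0.684 and 0.459), with r of 0.10 without the 2 libraries farthest from the Jun median. Fos was the gene closest to both sets: it had Pearson r 0.82, Spearman rho 0.85 with Zfp36 (permutation adjusted p = 0.00308 and 0.00292), the highest r of the 24 pairs between the sets, and r of 0.71 without the 2 combination libraries. The promoter matches shown above cut across the sets, with TGACG in Junb of one set and in Fos, Fosb, Atf3 and Nr4a1 of the other, and without a match in Jun.

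Some libraries ranked differently in the 2 sets. WD 2 ranked 1st or 2nd of the 13 libraries for the 4 genes Junb, Ier2, Ier3 and Zfp36, and between 5th and 13th for the other 6. WD 3 ranked between 1st and 4th for the set of 6 and between 5th and 11th for the set of 4. WD 5 ranked between 1st and 3rd for the set of 4, but also 3rd for Fos and Fosb and 4th for Egr1, and it ranked 7th for Nr4a1, 9th for Jun and last for Atf3. Combination 1 and combination 2 stood at the high and low ends of both sets. Without WD 2 and WD 5, the 2 libraries farthest from the Zfp36 median, r between Zfp36 and Atf3 was 0.90 where it was 0.47 over all 13, and r between Zfp36 and Nr4a1 was 0.80 where it was 0.40. The same 2 libraries lay farthest from the Ier2 median. Without them r was 0.60 where it was 0.15 for Ier2 and Atf3, and 0.60 where it was 0.18 for Ier2 and Nr4a1. For some other pairs between the sets r stayed low, at -0.0095 for Ier3 and Atf3, 0.10 for Jun and Junb and 0.09 for Fosb and Junb. For those pairs a different 2 libraries, those farthest from the median of the first gene, were left out.

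**Figure D4:**
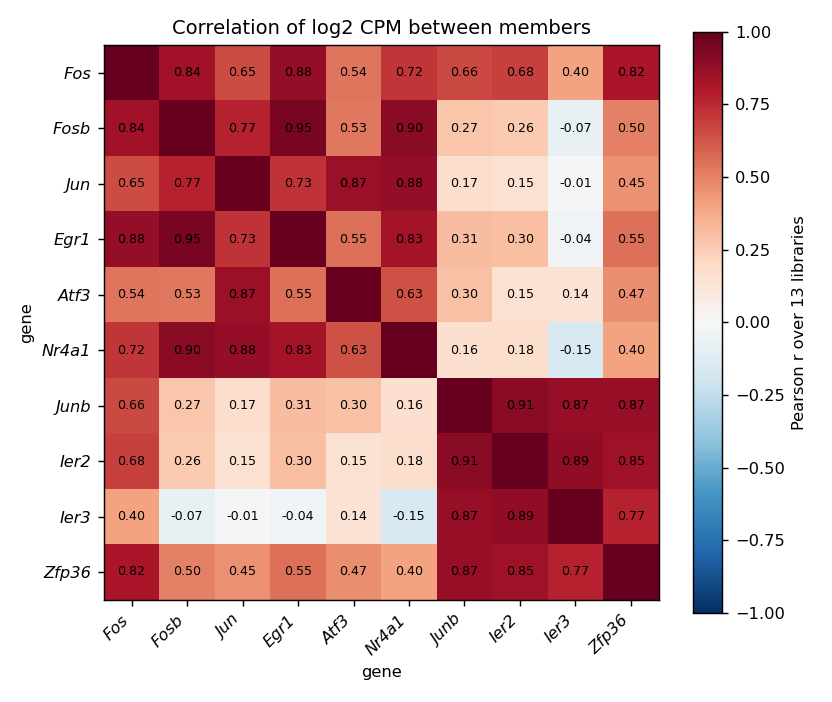
Pearson r of log2 CPM over the 13 libraries for each pair of the 10 genes, red for positive and blue for negative, with the genes of the set of 6 first. The block of Fos, Fosb, Jun, Egr1, Atf3 and Nr4a1 holds r of 0.53 to 0.95 and the block of Junb, Ier2, Ier3 and Zfp36 holds r of 0.77 to 0.91. Pairs between the blocks have a median of 0.29 but reach 0.82, for Fos and Zfp36, so the ranges overlap.

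Neither the mitochondrial share of counts nor the scaling factor passed a test against a gene. Over 20 relations, of the 10 genes with the mitochondrial share of counts and with the scaling factor, 0 passed an adjusted p of 0.05 by permutation. The smallest adjusted p was 0.246, shared by Ier3 with the scaling factor (r -0.65, rho -0.43) and by Fosb and Egr1 with the mitochondrial share (r -0.60 and -0.57, rho -0.51 and -0.52). Without the 2 libraries farthest from the median these r values were -0.37, -0.39 and -0.32. For Ier3 those 2 were WD 2 and auranofin 2. The marker sums were not among these relations. As a description over the 13 libraries, with the same libraries and scaling behind both values, the log2 sum moved with the mean of the 10 z-scores at r = -0.71 for the adipocyte markers, r = 0.68 for the contractile smooth muscle markers and r = -0.58 for the brown adipocyte markers. The other 9 marker lists of cell types had r of -0.48 (endothelium) to -0.039 (erythroid cells). The part of these in the levels of the genes was not tested.

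The genes whose log2 CPM was most like the mean of the 10 z-scores over the 13 libraries, among 11048 genes ranked, were Ppp1r15a (r = 0.91), Dusp1 (r = 0.90), Zfp821 (r = 0.85), Ccn1 (r = 0.85) and Upf3a (r = 0.84). Ppp1r15a encodes GADD34, a phosphatase subunit of the integrated stress response, Dusp1 encodes a phosphatase that switches off MAP kinases, and Ccn1 encodes a matricellular protein that is itself an early response gene. Dusp1 had 305, 157 and 214 CPM in the auranofin libraries, 329.8, 229 and 368 CPM in the atorvastatin libraries, 390.3 and 177 CPM in the combination libraries and 355, 277, 423, 222 and 314 CPM in the WD libraries. Its high libraries were WD 3, combination 1, atorvastatin 3 and WD 1, and auranofin 2 and combination 2 were its lowest. The most opposite genes were Agmo (r = -0.92), Car3 (r = -0.91), Adgrd1 (r = -0.90), Ces1f (r = -0.90) and B3galt2 (r = -0.88). Car3 encodes a carbonic anhydrase abundant in fat and muscle. Its level was 138 and 1035 CPM in the combination libraries, opposite in order to all 10 early genes.

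Of a wider list of early response genes, 55 of 56 were tested and 52 were ranked for likeness. Of these 52, 13 (25%) had an r above 0.5 with the mean of the 10 genes, against 10.6% of all 11048 ranked genes, and the median r was 0.08 for the list and 0.02 for all. Those with an r above 0.5 included Gadd45b and Rhob at 0.81 each and the synaptic early gene Arc at 0.81. In the comparison of auranofin with WD, 38 of the 55 were fitted lower and 17 higher with a median of -0.16, and 0 passed the adjusted threshold in either direction. The 2 lower genes with the smallest p were Jund at -1.0 (SE 0.36) and Arc at -1.17 (SE 0.47), and the 2 higher ones were Klf10 at 0.58 (SE 0.21) and Klf4 at 0.48 (SE 0.23), each with an adjusted p of 0.671 in edgeR. Jund, the third Jun protein, had 43.5, 44.9 and 48.9 CPM in the auranofin libraries and 68.3, 124, 71.3, 47.3 and 147 CPM in the WD libraries. WD 2 and WD 5, high for Junb, Ier2, Ier3 and Zfp36, were also the high WD libraries for Jund.

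For atorvastatin against WD, 34 of the 55 wider genes were fitted higher and 21 lower with a median of 0.05, and 0 passed. Fosl2, which encodes the Fos relative FRA-2, was at 0.88 (SE 0.36) and the clock gene Per1 at 0.64 (SE 0.27), with Ier5l at -1.02 (SE 0.45) and Arl4d at -0.53 (SE 0.25) on the lower side, all at an adjusted p of 0.340 in edgeR. For the combination against WD, 25 were fitted higher and 30 lower with a median of -0.05, and 0 passed. Per1 was at 0.82 (SE 0.30) and Dusp4 at 1.42 (SE 0.64), with adjusted p of 0.997 in edgeR.

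Kinases and factors that act upstream of the 10 genes were described in the same way. Of 25 genes, 16 were fitted lower and 9 higher in the auranofin than in the WD libraries with a median of -0.06, and 0 passed. The NF-kB subunit gene Rela was at -0.49 (SE 0.16) and the MEK2 gene Map2k2 at -0.73 (SE 0.28), while the MSK1 gene Rps6ka5 was at 0.69 (SE 0.24) and the SRF coactivator gene Mrtfb at 0.37 (SE 0.19), each with an adjusted p of 0.671 in edgeR. For atorvastatin against WD 18 of the 25 were fitted higher and 7 lower, and for the combination 15 were fitted higher and 10 lower, with 0 past the threshold in both. Of 17 genes listed as AP-1 and ATF partners, 10 were fitted lower and 7 higher in the auranofin libraries with a median of -0.13, and 0 passed. Beside Jund, Jdp2 was at -0.45 (SE 0.24), while Atf2 was at 0.41 (SE 0.21) and Mafg at 0.23 (SE 0.23).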

How the data were processed

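RNA of whole aorta was measured in 13 libraries. The authors deposited raw counts per gene and library. Per the labels' protocols, tissue was kept in RNAlater and the poly-A libraries were not stranded, and sequencing was on a DNBseq platform. Per the submitters' processing notes, STAR 2.6.1d, featureCounts, Subread 1.6.3 and the build GRCm39 were used. No further scaling of the counts is recorded there, and the values were whole numbers.

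Genes with low counts were removed with filterByExpr over the 4 groups, which left 18055 of 56953 genes. CPM and log2 CPM (prior count 2) were computed from the deposited counts with TMM factors. The quasi-likelihood test of edgeR 4.0.16 in R 4.3.3 was run with 1 mean per group, with an additive model for each drug given or not and with the interaction contrast, two-sided. P-values were adjusted over all genes tested with the Benjamini-Hochberg method at 0.05. SE is the size of the log2 difference over the square root of F, and intervals are 95%. Correlations used log2 CPM and permutation (100000 resamples, smallest possible p 1e-05). DESeq2 1.42.0, limma 3.58.1, other scaling, other filters, removal of mitochondrial genes, the compared groups only, a replicate block and leaving out each library were alternatives. The code was tested on simulated data.

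No 2 libraries were copies: over 78 pairs the lowest chi-squared per degree of freedom was 17.2. The 10 genes and all lists were chosen with earlier results of these data known. All 10 were named in every comparison. Of other lists, genes past the threshold were to be named, and otherwise up to 2 per direction with the smallest p. The 5 genes most and 5 least like the 10 were named among genes whose log2 CPM averaged 2 or more. Other genes named were chosen after their values were seen. Promoters are from RefSeq.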

Additional observations from a re-analysis of the deposited data

How the results depend on the processing

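In 0 of 158 comparisons, counting each comparison once per setting on the same libraries or part of them, did one of the 10 genes pass an adjusted p of 0.05. The smallest adjusted p of any of the 10 over all of these was 0.202. Over all genes DESeq2 called 2 genes for auranofin against WD, 4 for the combination against WD, 5 for auranofin against atorvastatin and 9 for the interaction, and omitting the low-count filter called 13, 2 and 9 for auranofin, atorvastatin and combination against WD, where edgeR with the filter called 0, so these few calls depended on tool and filter. Libraries of different groups with the same replicate number were not clearly more alike: 15 same-number pairs had correlations of -0.31 to 0.43 with a median of 0.06. The 46 pairs of other numbers had -0.49 to 0.51 with a median of -0.04. Such correlations of deviations from group means mirror each other in a group of 2, so they cannot exclude a pairing. With the replicate number as a block, WD 4 and WD 5 having no partner, 0 genes passed in each comparison, and Atf3 changed sign for atorvastatin and the combination against WD, to -0.17 and -0.18.

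Lower fitted levels of all 10 genes for auranofin against WD held in each alternative run. Which of the 10 reached an unadjusted p under 0.05 depended on the tool and on the low-count filter, though none passed adjustment. For auranofin against WD these were Zfp36 in edgeR, Fos, Fosb, Egr1 and Zfp36 in DESeq2, and Egr1, Zfp36 and Atf3 in limma voom. Without the filter, edgeR gave Fos, Fosb, Egr1, Zfp36 and Atf3 for auranofin against WD, and Fos and Junb for the interaction. For auranofin against atorvastatin, Fosb and Atf3 reached it in edgeR without the filter, and Fosb in DESeq2. For auranofin given or not there were none in edgeR or DESeq2. In limma voom they were Fosb, Jun, Egr1, Zfp36 and Atf3, with a median of -0.50 over the 10 genes. No share of all genes tested is given for DESeq2, for limma voom or for edgeR without the filter. With limma voom, fitted values against WD changed sign to -0.17 (Fosb), -0.0082 (Jun), -0.23 (Atf3) and -0.027 (Nr4a1) for atorvastatin and to -0.26 (Fosb), -0.034 (Jun) and -0.16 (Atf3) for the combination. Without WD 2 and auranofin 2 together, a setting chosen after seeing the data, Fosb was at -0.22 for atorvastatin and -0.019 for the combination. For atorvastatin given or not, limma voom fitted 7 of the 10 genes lower, with a median of -0.21. With edgeR 4 were fitted lower, with a median of 0.05. The cause of these changes was not tested.

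Leaving out 1 library at a time gave 0 to 10 called genes for the combination and 0 to 2 for the interaction, each high without combination 1. Medians of the 10 genes spanned -1.04 to 0.50 for the combination, -0.060 to 1.24 for the interaction and -0.32 to 0.22 for atorvastatin given or not. For atorvastatin against WD the ranges were -0.23 to 0.26 (Fosb), -0.0021 to 0.45 (Jun) and -0.14 to 0.32 (Atf3). For the combination against WD they were -1.98 to 0.67 (Fos), -1.64 to 1.01 (Fosb), -0.56 to 0.74 (Jun), -1.09 to 0.34 (Junb), -0.84 to 0.20 (Egr1), -0.98 to 0.18 (Ier2), -1.22 to 0.031 (Ier3), -1.14 to 0.098 (Zfp36), -0.74 to 0.82 (Atf3) and -0.41 to 0.73 (Nr4a1). For the interaction they were -0.41 to 2.22 (Fos), -0.35 to 2.29 (Fosb), -0.34 to 0.95 (Jun), -0.048 to 1.17 (Ier3), -0.030 to 1.18 (Zfp36), -0.072 to 1.48 (Atf3) and -0.13 to 1.00 (Nr4a1), and for auranofin given or not -0.48 to 0.057 (Ier3). Each of the 10 genes had at least 115 counts in every library, so counting error was small beside the spread between libraries.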

Other observations

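Of 15 mostly cytokine mRNAs known as targets of the Zfp36 product, 12 passed the filter on low counts. Of these 12, 8 were fitted lower and 4 higher in the auranofin than in the WD libraries with a median of -0.19 on the log2 scale, 4 higher and 8 lower in the atorvastatin libraries with a median of -0.58, and 1 higher and 11 lower in the combination libraries with a median of -0.33. None passed an adjusted p of 0.05 in edgeR, where the smallest values were 0.770, 0.417 and 0.997. Tnf, a textbook target, was at -1.18 (SE 0.78) for atorvastatin against WD, and Il1b was at -1.02 (SE 1.35) for the combination. On the higher side were Lif at 0.63 (SE 0.55) for atorvastatin and Tnf at 0.16 (SE 0.83) for the combination.

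Heat shock genes, which dissection can also induce, were split in the auranofin libraries, where 5 of 10 were fitted lower and 5 higher than in the WD libraries with a median of -0.05. Hspb1 was at -0.97 (SE 0.52) and Hspd1 at 0.62 (SE 0.29), and 0 of the 10 passed. The summed level of the 10 was 2402 to 5967 CPM in the auranofin libraries, 3258 to 5714 CPM in the atorvastatin libraries, 3220 to 4856 CPM in the combination libraries and 2991 to 5205 CPM in the WD libraries. Over the 13 libraries the log2 of this sum had r = 0.64 with the mean of the 10 z-scores of the early genes, a description, since both share libraries and scaling. Its part in the levels of the early genes was not tested.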
